A study of Danio rerio with 6 samples.

Results

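The 8 copies of complement component 3 (C3) in zebrafish were examined in RNA sequencing libraries from the liver of wild type AB fish and of fish with the genotype capn3b-/-. The copies were chosen by gene name, as every row named c3a or c3b followed by a copy number, from a table of 23354 genes. Of the 8 copies, 7 were found by that name, and c3a.4, which the deposited table lists as C3, was found by its Ensembl identifier. The libraries came from dissected livers of adult fish, 3 of the genotype capn3b-/- and 3 of the AB strain, a laboratory line of zebrafish. The gene capn3b is a zebrafish gene for calpain 3, a calcium-dependent protease, and the series asked which liver genes differ when it is lost. The labels give no mutant allele, clutch, sex or age beyond adult, and do not say whether a library holds 1 liver or several.

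C3 is the central protein of complement, the set of plasma proteins that tags microbes for uptake and lyses them. Hepatocytes make most of the C3 in plasma, and in mammals the liver makes more of it in the acute phase response. A protease complex called the C3 convertase cuts C3 into a small fragment that attracts leukocytes and a large fragment that binds surfaces through a reactive thioester bond. Those cleavage fragments are called C3a and C3b, but the zebrafish gene names c3a and c3b mean gene copies and not fragments.

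Expression was given as FPKM, the number of reads per kilobase of gene and per fixed number of reads of the library. The reads behind the values numbered 17905457 to 18470779 in the mutant libraries and 16858409 to 19492592 in the wild type libraries. The targeted gene checked nothing about the labels, because reads of capn3b were at or near 0 in both genotypes, 1 in mutant replicate 3 and 0 in 5 libraries. The limit that a count of 0 allows, 3 reads, is at most 0.0594 FPKM of capn3b in a library. Genes that mark hepatocytes were abundant in every library: all 10 on the list were tested, and their summed level was 144569 to 152872 FPKM in the mutant libraries and 143297 to 153898 FPKM in the wild type libraries.

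Transcripts of the abundant C3 copies stood at higher levels in the mutant liver, and 3 copies passed the test. Genotypes were compared with limma on log2(FPKM + 1), with p-values adjusted over the 11164 genes that reached 1 FPKM in at least 3 libraries. Of the 7 copies tested, c3a.1, c3a.2 and c3b.2 rose, 0 fell and 4 did not pass an adjusted p of 0.05, against 11.4% of all tested genes that passed, 5.91% higher and 5.45% lower. The log2 fold changes (mutant minus wild type) of the 7 copies were all positive, with a median of 0.70, and the median over all tested genes was 0.05. In 6 of the 8 copies every mutant library lay above every wild type library, which was so for 19.1% of all tested genes. These 6 are not separate observations, since c3a.2 shares bases with c3a.3, and c3b.1 with c3b.2. The copies were also chosen with earlier results of these data known. The 2 copies whose groups overlapped, c3a.4 and c3a.5, were also the least abundant. In whole liver, more C3 RNA per cell and more cells that make it cannot be told apart. Mitochondrial genes also moved with genotype, at 4.75%, 4.47% and 5.48% of FPKM in the mutants and 8.61%, 6.25% and 6.80% in the wild type, and their part in the C3 levels was not tested.

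**Figure D1:**
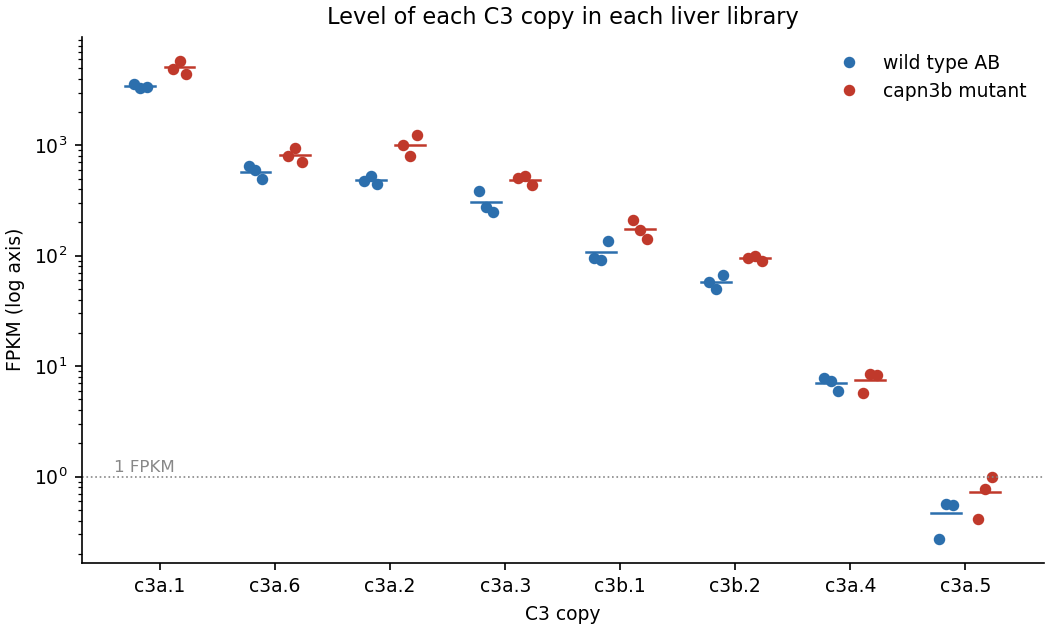
FPKM of each C3 copy on a log axis, 1 point per library and a bar at the mean of each genotype, with the copies in order of their wild type mean. The mutant points of c3a.1, c3a.2, c3a.3, c3a.6, c3b.1 and c3b.2 lie above all wild type points, those of c3a.4 and c3a.5 do not, and c3a.5 stays below the dotted line at 1 FPKM.

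Of these copies 6 lie together on chromosome 1, over 331733 bases from 55319541 to 55651273, and 2 on chromosome 22, over 107031 bases from 26109348 to 26216378. Coordinates are those of the deposited table, and GRCz11 is the build in the submitters' processing notes. On chromosome 1 the minus strand carries c3a.4 (ENSDARG00000093198, 55319541 to 55356030), c3a.6 (ENSDARG00000043719, 55360638 to 55410849), c3a.5 (ENSDARG00000053462, 55438226 to 55453189) and c3a.1 (ENSDARG00000012694, 55460926 to 55507680). The plus strand carries c3a.2 (ENSDARG00000087359, 55560378 to 55597435) and c3a.3 (ENSDARG00000052207, 55560378 to 55651273), which start at the same base. All 37058 bases of the c3a.2 span lie inside the c3a.3 span. On chromosome 22 both copies are on the minus strand, c3b.1 (ENSDARG00000093068) at 26160287 to 26216378 and c3b.2 (ENSDARG00000001818) at 26109348 to 26216321, and they share 56035 bases. Reads from the shared bases cannot be told apart by position, and how the authors assigned them is not given in the sources used here. The values of c3a.2 against c3a.3 and of c3b.1 against c3b.2 are therefore uncertain, and the copies may share sequence elsewhere.

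**Figure D2:**
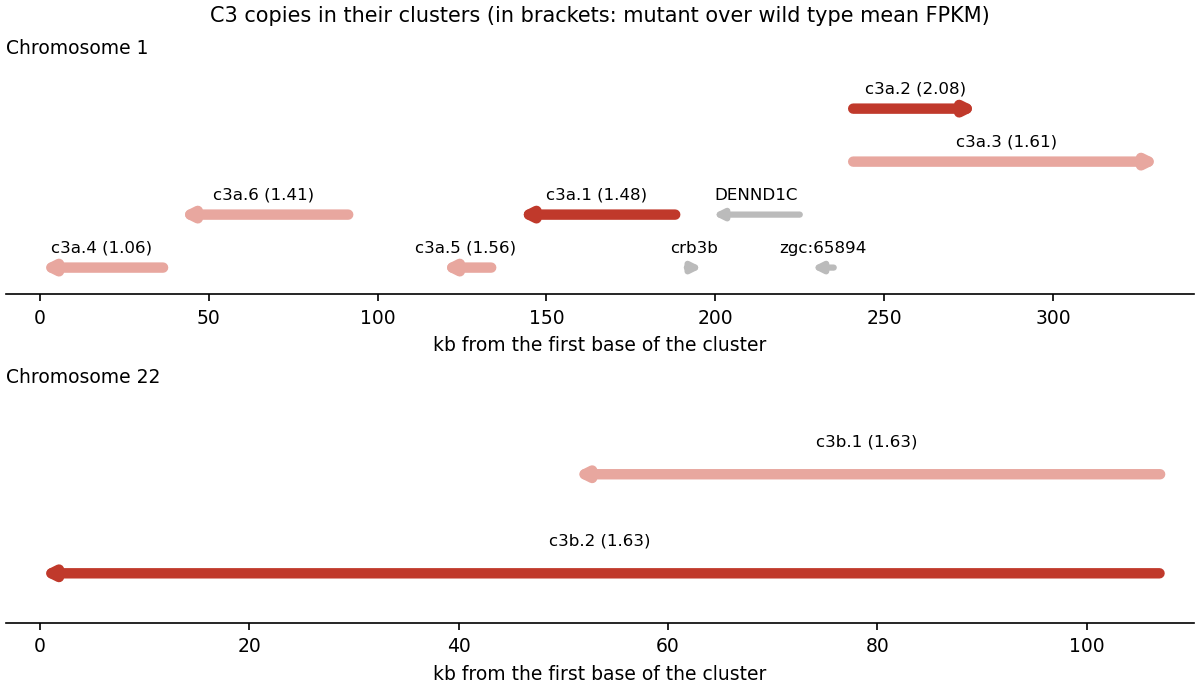
Gene spans of the C3 copies and of the genes between them, as arrows in the direction of transcription, against kilobases from the start of each cluster. Dark red copies passed the test, pale red copies did not pass or, for c3a.5, were not tested, grey genes are not C3 copies, and the brackets give mutant over wild type mean FPKM, from 1.06 for c3a.4 to 2.08 for c3a.2.

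The most abundant copy was c3a.1. Its level was 4922, 5834 and 4447 FPKM in mutant replicates 1 to 3 and 3604, 3283 and 3363 FPKM in wild type replicates 1 to 3. The lowest mutant library stood above the highest wild type library, and the mutant libraries were spread more widely. The mean rose from 3417 ± 167 to 5067 ± 705 FPKM (SD, n = 3 each), a log2 fold change of 0.56 (SE 0.13, limma adjusted p = 0.0335). Among all genes of a library, counted from the most abundant, its rank was 12 to 14 in the mutants and 19 to 23 in the wild type. The call was not firm: the adjusted p was 0.0865 without mutant replicate 1, 0.107 without mutant replicate 2, and 0.0605, 0.0986 and 0.0897 without wild type replicates 1, 2 and 3. Over 14 alternatives the adjusted p ran from 0.0186 to 0.188, while the log2 fold change stayed between 0.45 and 0.65.

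The largest log2 fold change among the 7 tested copies belonged to c3a.2. It was at 998, 799 and 1233 FPKM in the mutants and at 478, 531 and 446 FPKM in the wild type. All 3 mutant libraries were high, with mutant replicate 3 the highest. The mean rose from 485 ± 43.1 to 1010 ± 217 FPKM (SD, n = 3 each), a log2 fold change of 1.04 with a 95% interval of 0.63 to 1.45 (SE 0.18, limma adjusted p = 0.0129). This was the only copy that passed in all 14 alternatives, with an adjusted p of at most 0.0460.

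For c3a.3, whose span holds c3a.2, the mutant libraries were at 507, 525 and 435 FPKM and the wild type libraries at 389, 273 and 251 FPKM. Wild type replicate 1 was the highest of its group and came nearest to the mutants. The log2 fold change was 0.70 (SE 0.19), and the adjusted p of 0.0507 lay just above the threshold. It was 0.0202 without wild type replicate 1, and 0.0202 to 0.153 over 14 alternatives. With the reads of c3a.2 and c3a.3 summed, which does not depend on how shared reads were divided unless they were counted for both copies, the pair took 0.846%, 0.754% and 0.920% of mutant reads and 0.5004%, 0.453% and 0.394% of wild type reads. The mean shares were 1.87 times apart and the groups did not overlap.

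The copy c3a.6 was at 798, 939 and 707 FPKM in the mutants and at 643, 592 and 494 FPKM in the wild type. The groups were separate, with a gap of less than their own spread. Its log2 fold change of 0.50 (95% interval 0.13 to 0.87) did not pass (limma adjusted p = 0.0861), nor did it under any of 14 alternatives.

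The 2 remaining c3a copies were rare. For c3a.4 the values were 5.76, 8.53 and 8.27 FPKM in the mutants and 7.87, 7.35 and 5.97 FPKM in the wild type, and the groups lay over each other. Its log2 fold change was 0.07 with a 95% interval of -0.35 to 0.49 (limma adjusted p = 0.839). A change of FPKM + 1 of up to 1.40-fold up, or to 0.787 of the wild type value down, is within the interval. At this level the added 1 shrinks differences, so the interval for FPKM itself is wider. For c3a.5 only 18, 34 and 45 reads were recovered in the mutants and 13, 24 and 23 in the wild type. All its values were below 1 FPKM, from 0.273 to 0.997, and it was not tested.

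On chromosome 22, c3b.1 was at 212, 171 and 142 FPKM in the mutants and at 95.8, 90.5 and 135 FPKM in the wild type. Wild type replicate 3 stood apart from the other wild type libraries and close to mutant replicate 3. The log2 fold change was 0.71 (SE 0.21), with a limma adjusted p of 0.0690. Without wild type replicate 3 it was 0.88 with an adjusted p of 0.0435, and the adjusted p ran from 0.0391 to 0.201 over 14 alternatives.

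Its neighbour c3b.2 was at 95.1, 99.97 and 89.6 FPKM in the mutants and at 58.2, 49.9 and 66.7 FPKM in the wild type. The mutant libraries varied least of any copy, by 5.49% of their mean. The mean rose from 58.3 ± 8.43 to 94.9 ± 5.21 FPKM (SD, n = 3 each), a log2 fold change of 0.70 (SE 0.15, limma adjusted p = 0.0259). The adjusted p was 0.0848 without mutant replicate 1, 0.0847 without mutant replicate 2, 0.0593 without wild type replicate 1 and 0.0871 without wild type replicate 2, the last being the highest of 14 alternatives, which began at 0.0144. Summed over c3b.1 and c3b.2, the pair took 0.183%, 0.162% and 0.138% of mutant reads and 0.0917%, 0.0837% and 0.120% of wild type reads, 1.63 times more in the mutant mean.

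**Figure D3:**
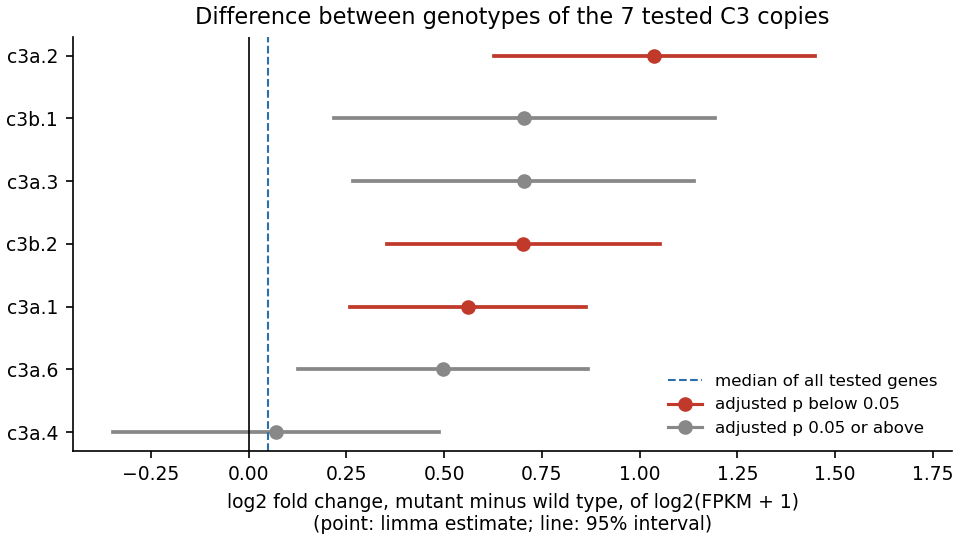
Log2 fold change (mutant minus wild type) of log2(FPKM + 1) for the 7 tested C3 copies, with 95% intervals, red where the adjusted p was below 0.05. All intervals but that of c3a.4 lie above 0, the lowest of them starting at 0.13 for c3a.6. The estimates of these copies run from 0.50 for c3a.6 to 1.04 for c3a.2. The dashed line marks the median of all tested genes at 0.05.

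Summed over the 8 copies, C3 stood at 7538, 8377 and 7062 FPKM in the mutants and at 5277, 4828 and 4763 FPKM in the wild type. The mutant mean of 7659 ± 666 FPKM was 1.55 times the wild type mean of 4956 ± 280 FPKM (SD, n = 3 each). C3 reads were 3.99% of mutant reads and 2.58% of wild type reads. Without c3a.1 the sum was 2591 against 1539 FPKM, 1.68 times higher in the mutant. These sums are described without a test, because the copies were chosen with results known.

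Within this pool the shares of c3a.1, of c3a.2 and of the c3b copies overlapped between the genotypes, and that of c3a.4 did not. By FPKM, c3a.1 held 66.0 ± 3.4% of the mutant pool and 69.0 ± 1.4% of the wild type pool. The share of c3a.2 was 13.4 ± 4.0% against 9.81 ± 1.05% (SD, n = 3 each). It was 13.2%, 9.54% and 17.5% in the mutants and 9.07%, 11.01% and 9.36% in the wild type, so mutant replicate 2 fell within the wild type range. The c3b copies together held 3.53 ± 0.47% and 3.35 ± 0.76%. The rare c3a.4 held 0.0765%, 0.102% and 0.117% of the mutant pool and 0.149%, 0.152% and 0.1253% of the wild type pool, lower in every mutant library. Its own FPKM overlapped between the genotypes, while the pool it is divided by was 1.55 times higher in the mutant mean. The lower share is therefore not separate from the rise of the pool. The order of levels was c3a.1, c3a.6, c3a.2, c3a.3, c3b.1, c3b.2, c3a.4 and c3a.5 in the wild type. In the mutant c3a.2 came before c3a.6, and in both genotypes these were the only neighbours in the order whose libraries overlapped. The top copy was 5.93 times the next in the wild type and 5.02 times in the mutant, and c3b.2 was 8.25 and 12.6 times c3a.4.

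Whether a copy differed from c3a.1 in its response was tested on the log2 ratio of each tested copy to c3a.1 within a library, for 6 ratios. With 3 libraries against 3 the two-sided exact permutation p cannot go below 0.1, so this test could not pass for any copy. The ratio of c3a.2 was higher in the mutant by 0.48 (exact permutation p = 0.2), and by 0.23 to 0.74 with each library left out. That of c3a.4 differed by -0.49 (exact permutation p = 0.2), and by -0.65 to -0.35 with each library left out. The other 4 ratios differed by -0.06 to 0.14, and all 6 had a Benjamini-Hochberg adjusted p of 0.5. Whether c3a.2 or c3a.4 differed from c3a.1 in response was not settled by this test.

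Across the libraries of a genotype the copies did not all move together. Mutant replicate 2 was the highest and mutant replicate 3 the lowest mutant library for c3a.1, c3a.3, c3a.6 and c3b.2. For c3a.2 it was the other way round: mutant replicate 3 stood 0.83 above the copy's mean over 6 libraries on the log2(FPKM + 1) scale, and mutant replicate 2 only 0.20 above it. In c3b.1 mutant replicate 1 led, at 0.65 above. In the wild type, replicate 1 was highest for c3a.1, c3a.3, c3a.4 and c3a.6, and replicate 3 for both c3b copies.

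**Figure D4:**
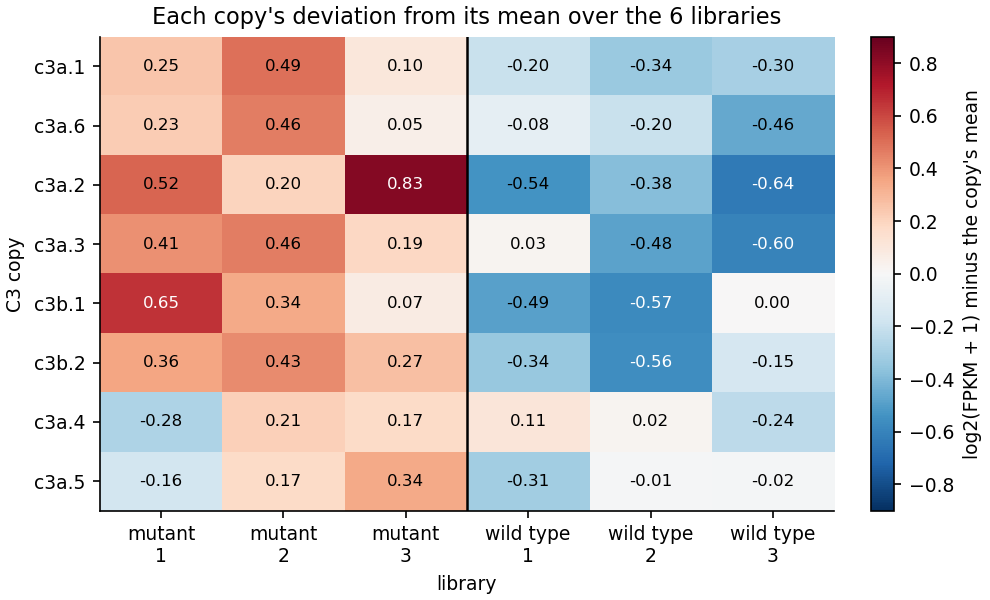
Each copy's log2(FPKM + 1) in each library minus the copy's mean over the 6 libraries, red above and blue below, with the value in each cell. The deviations of c3a.2 run from -0.64 in wild type replicate 3 to 0.83 in mutant replicate 3, and mutant replicate 2, at 0.49 for c3a.1, is only at 0.20 for c3a.2.

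The genes whose pattern over the 6 libraries was most like that of c3a.1 or c3b.1 were found by the root mean square difference of mean-centred log2(FPKM + 1), among 8969 tested genes with a symbol. Nearest to c3a.1 were prpf39, a splicing factor gene, and fgb, the gene of the fibrinogen beta chain, which is another plasma protein of hepatocytes, each at 0.04, and then tnk2b, capn7 and snap29, each at 0.05. The level of fgb was 6446, 6996 and 5353 FPKM in the mutants and 4415, 4053 and 4238 FPKM in the wild type, and it rose (log2 fold change 0.56, limma adjusted p = 0.0326). That rise follows from the choice of genes by likeness to c3a.1 over the same libraries, and is no separate result. Both tnk2b, at 1.29 against 0.509 FPKM, and capn7, at 3.10 against 1.95 FPKM, are at levels where the added 1 shrinks differences. The nearest C3 copy to c3a.1 was c3a.6, at 0.10, with 53 genes nearer, and the farthest was c3a.2, at 0.39, with 5389 nearer. Among the genes nearest to c3b.1 were ggt5a at 0.05 and znf598, h6pd and ddost at 0.11 each, and 64 genes were nearer to it than c3b.2, at 0.17. The added 1 also shrinks the difference of ggt5a, at 2.06 against 0.912 FPKM.

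Transcript event lists, which give the FPKM of assembled transcripts at each start, end and alternative exon in each library, held 48 to 60 events of the C3 copies per library. They were made separately for each library, and are described without a test. Transcripts from the start of c3a.1 were listed at 4448, 5251 and 3954 FPKM in the mutants and at 3221, 2973 and 3034 FPKM in the wild type, with no overlap, as in the gene table. The lists come from the same libraries as the gene table, so they are no separate observation. How they divide reads between overlapping copies is not given. Transcripts that ended at the c3a.2 end were at 1081, 999 and 1642 FPKM in the mutants and 563, 704 and 612 FPKM in the wild type, again higher in the mutants. The same held for transcripts that ended near the c3b.1 end, at 240, 194 and 161 FPKM against 111, 110 and 150 FPKM. The start listed at these values, 26216218 to 26216321, begins at the annotated start of c3b.2, inside the c3b.1 span.

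The lists separate c3a.3 from c3a.2 by a start of its own, an exon at 55605317 to 55605457 of chromosome 1, past the end of c3a.2. From this start c3a.3 transcripts were at 543, 635 and 465 FPKM in the mutants and at 238 and 242 FPKM in wild type replicates 1 and 2, and it was listed at 0 FPKM in wild type replicate 3. The level at the start shared with c3a.2 exceeded that at the c3a.2 end by 270 FPKM in mutant replicate 1 and by 212, 110 and 321 FPKM in wild type replicates 1 to 3, and equalled it in the other mutant libraries. With this excess added, the own start gave 813, 635 and 465 FPKM in the mutants and 451, 352 and 321 FPKM in the wild type, again without overlap. How much of c3a.3 began at its own start thus varied between assemblies of single libraries. For c3b.2 a start other than its annotated one lay past the c3b.1 end, at 26155180 to 26155253 of chromosome 22. This start was listed at 133, 123.2 and 113 FPKM in the mutants and at 65.2 and 62.7 FPKM in wild type replicates 1 and 2. In wild type replicate 3 it was listed at 0 FPKM, and a start upstream of both copies was listed there at 83.9 FPKM.

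An exon of c3a.6 occurred in 2 forms, of 118 bases (55383898 to 55384015) and of 100 bases (from 55383916), which differ by 18 bases. The shorter form made up 52.3%, 55.7% and 54.4% of the 2 forms in the mutants and 55.6%, 46.5% and 66.6% in the wild type. The genotypes overlapped, with mutant libraries between the wild type extremes. An exon of 213 bases in c3b.1 (26201700 to 26201912) was listed as included in 100% of transcripts in 4 libraries, in 82.3% in wild type replicate 2 and in 0% in mutant replicate 1. The exception, mutant replicate 1, was also the library with the highest c3b.1 level, and it rests on a single assembly.

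The other complement genes were taken from lists by role, of 39 rows in the table. Of 33 tested, 11 rose, 1 fell and 21 did not pass, beside 5.91% and 5.45% of all tested genes, and their median log2 fold change was 0.39. The count of higher genes changed with 1 library left out. It was 1, 4 and 4 without mutant replicates 1, 2 and 3. Without wild type replicates 1, 2 and 3 it was 5, 1 and 10. Calls over all 11164 tested genes, 1268 with every library, fell to 516, 536 and 1134, and to 801, 414 and 1085, in the same order. How much of the change came from having fewer libraries was not tested. The listed genes c2, cfi, c1s, c4bp, c3ar1, hbl3, fcn1, c5ar2, itgax and vsig4 were matched to no row by name. They were therefore not analysed here.

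Convertase partners make, or stabilise, the enzyme that cuts C3. Of 6 tested, 3 rose and 0 fell, beside 5.91% and 5.45% of all tested genes. The C4 gene c4b, for a thioester protein related to C3, rose from 287 ± 42.6 to 546 ± 87.1 FPKM (SD, n = 3 each; log2 fold change 0.92, limma adjusted p = 0.0168), and its call was lost in 3 of 14 alternatives, at an adjusted p of 0.0585 and 0.0521 when mutant replicates 1 and 2 were left out and of 0.0644 when wild type replicate 2 was. Factor D, the protease that activates factor B, is encoded by cfd, which rose from 15.1 to 27.8 FPKM (log2 fold change 0.89, limma adjusted p = 0.0483). The cfd call was lost in 10 of 14 alternatives, with an adjusted p of up to 0.129. Properdin, which stabilises the convertase, is encoded by cfp, which rose from 1.64 to 4.11 FPKM (limma adjusted p = 0.04997), in a span that overlaps another row named CFP, and this call was lost in 7 of 13 alternatives. Factor B itself, which binds the large C3 fragment to form the convertase, was far more abundant: cfb was at 1799 ± 274 against 1458 ± 191 FPKM (mutant against wild type) and did not pass (log2 fold change 0.30, limma adjusted p = 0.260). Its relative cfbl was at 8.48 against 1.75 FPKM (limma adjusted p = 0.0513).

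Regulators restrain complement, at C3 or at other steps. Of 10 tested, 2 rose and 0 fell, beside 5.91% and 5.45% of all tested genes. Among the genes related to factor H, which binds the large C3 fragment and speeds decay of the convertase in mammals, cfhl5 rose from 167 ± 39.5 to 370 ± 57.3 FPKM (SD, n = 3 each; log2 fold change 1.16, limma adjusted p = 0.0148), and missed the threshold only without wild type replicate 2, at an adjusted p of 0.0537. Another, cfhl3, rose from 72.0 to 117 FPKM (limma adjusted p = 0.0495), a call lost in 9 of 14 alternatives, with an adjusted p of up to 0.152. Factor H itself, cfh, was at 504 ± 99.2 against 374 ± 38.9 FPKM and did not pass (log2 fold change 0.42, limma adjusted p = 0.162), and its span overlaps cfhl1 and cfhl2.

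**Figure D5:**
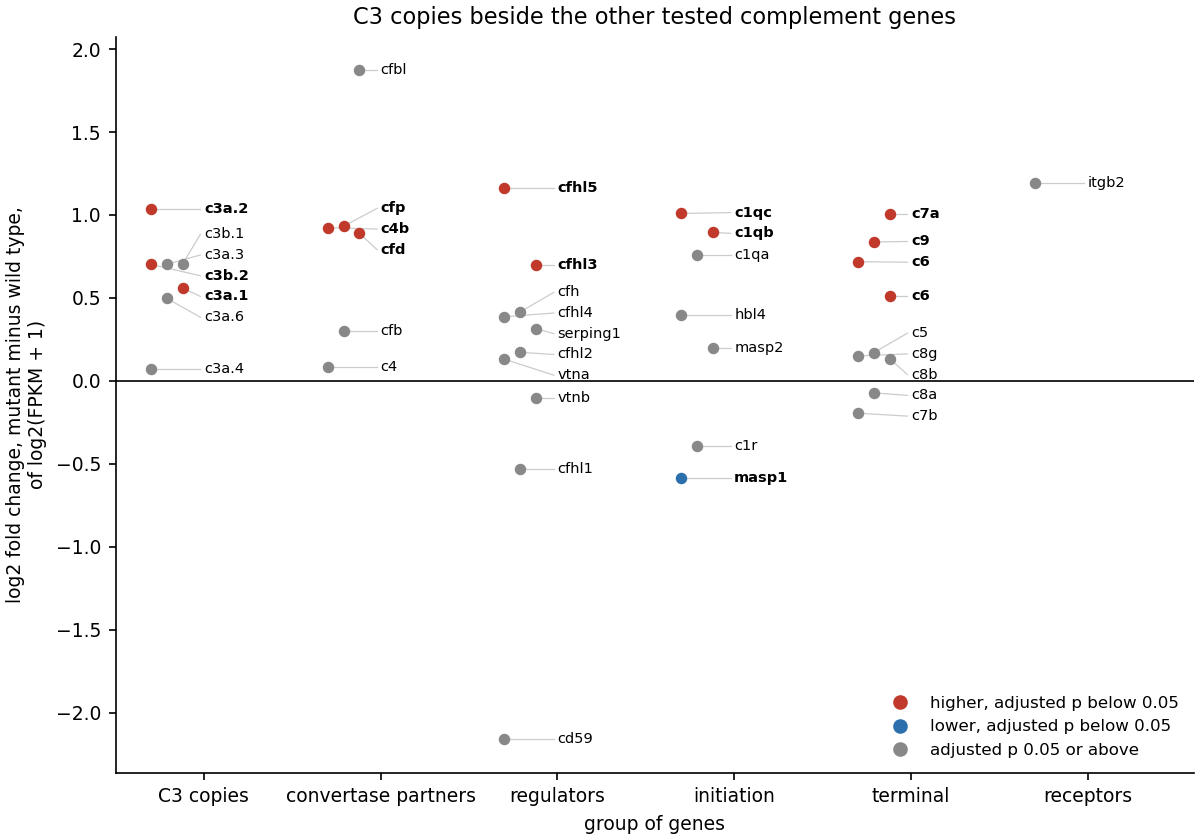
Log2 fold change (mutant minus wild type) of log2(FPKM + 1) for each tested C3 copy and complement gene, by role, 1 point per gene and spread sideways for legibility, red where higher and blue where lower at an adjusted p below 0.05. The called C3 copies lie between 0.56 and 1.04, in the range of the other called genes, from 0.51 for a c6 row to 1.16 for cfhl5, and masp1 is the gene that fell.

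Initiation genes start the cascade, and of 7 tested 2 rose and 1 fell, beside 5.91% and 5.45% of all tested genes. The C1q chains c1qb and c1qc rose, from 9.14 to 17.8 and from 13.8 to 28.2 FPKM (limma adjusted p = 0.0273 and 0.0306), calls lost in 5 and 6 of 14 alternatives. Both are made by macrophages and stand in the macrophage marker list as well. The lectin pathway protease gene masp1 fell from 10.2 ± 0.542 to 6.52 ± 1.13 FPKM (SD, n = 3 each; log2 fold change -0.59, limma adjusted p = 0.0445), a call lost in 7 of 14 alternatives, with an adjusted p of up to 0.137.

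Terminal components form the pore after C3 has been cut. Of 9 tested rows, 4 rose and 0 fell, beside 5.91% and 5.45% of all tested genes. The pore gene c9 was the most abundant, at 4063, 4276 and 3139 FPKM in the mutants and 2255, 2163 and 1959 FPKM in the wild type (log2 fold change 0.84, limma adjusted p = 0.0143), in a span that overlaps another gene, and its call was lost in 4 of 14 alternatives, with an adjusted p of up to 0.0786. Like c3a.1, it was highest in mutant replicate 2 and lowest of the mutants in replicate 3. The gene c7a rose from 4.05 to 9.32 FPKM (limma adjusted p = 0.0159), and both rows named c6 rose, from 7.08 to 10.5 and from 1.53 to 3.23 FPKM (limma adjusted p = 0.0409 and 0.0418), with spans that overlap each other. The c7a call was lost in 2 of 14 alternatives, at an adjusted p of 0.0512 with mutant replicate 1 left out and 0.0645 with wild type replicate 2 left out, and the c6 calls in 8 of 14 and 8 of 13. Among receptors only itgb2, the beta chain of complement receptor integrins, was tested (log2 fold change 1.19, not called), and c5ar1, the receptor of the C5 fragment, was at 1.03 against 0.671 FPKM and under the filter.

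Of the other thioester proteins, a2ml, a gene related to the protease inhibitor alpha-2-macroglobulin and in the same family as C3, went the other way. It was at 48.9, 45.6 and 70.3 FPKM in the mutants and 125, 107 and 111 FPKM in the wild type, and fell by 1.07 on the log2 scale (SE 0.19, limma adjusted p = 0.0145), in a span that overlaps other genes. Its call was lost in 2 of 14 alternatives, at an adjusted p of 0.0547 with mutant replicate 1 left out and 0.0517 with wild type replicate 2 left out. Of 9 transcription factor genes whose products act on the C3 promoter in mammals, 1 rose, 1 fell and 7 did not pass, near the 5.91% higher and 5.45% lower of all tested genes. The NF-kB subunit gene nfkb1 rose from 1.44 to 3.22 FPKM (limma adjusted p = 0.0281), and nr1h3, for the liver X receptor alpha, fell from 9.22 to 4.95 FPKM (limma adjusted p = 0.0444). The first call was lost in 6 of 13 alternatives and the second in 7 of 14.

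The 11 genes between the copies or within 50000 bases of them were also read. Of 7 tested, too few to set against the 5.91% higher and 5.45% lower of all tested genes, 1 rose and 0 fell. This was crb3b, between c3a.1 and c3a.2, at 16.1, 30.5 and 12.04 FPKM in the mutants and 8.76, 2.47 and 3.33 FPKM in the wild type (log2 fold change 1.86, limma adjusted p = 0.0341), and its call was lost in 7 of 14 alternatives. Farther along, DENND1C was under the filter, at 0.920 against 0.463 FPKM. Past it, zgc:65894 was at 21.7 against 9.05 FPKM and did not pass (log2 fold change 1.36, limma adjusted p = 0.0728). All of these genes between c3a.1 and c3a.2 were higher in every mutant library, which was so for 19.1% of all tested genes. None of the other tested neighbours, on either chromosome, passed, with log2 fold changes from -0.15 to 0.34. Any link of the neighbours to the C3 levels was not tested.

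Some markers of other cell types moved with genotype beside the C3 copies. Their counts stand beside 5.91% higher and 5.45% lower among all tested genes. Of 11 tested macrophage markers 6 rose and 0 fell, and their summed level was 384 to 631 FPKM in the mutants and 251 to 397 FPKM in the wild type. Most of that sum was cd74a, at 254 to 443 FPKM in the mutants and 175 to 284 FPKM in the wild type. This gene did not pass (limma adjusted p = 0.209). Each macrophage call was lost in 0 to 6 alternatives. Of 5 tested neutrophil markers 4 rose, with a summed level of 24.2 to 61.2 against 7.42 to 12.5 FPKM, and of 6 erythrocyte markers 5 fell, with 177 to 199 against 340 to 404 FPKM. The neutrophil calls were lost in 1 to 9 alternatives each, among them mpx in 9 of 14 and ncf1 in 7 of 13. Each erythrocyte call was lost in 0 to 6 alternatives. Of 5 biliary markers 1 rose, krt18a.1, with sums of 692 to 865 against 393 to 450 FPKM. The difference between the sums came mostly from krt18a.1 itself, at means of 531 against 204 FPKM. The other 4 did not pass, with log2 fold changes from -0.05 to 0.86, the lowest for anxa4 at 190 against 197 FPKM. No endothelial, stellate or pancreas acinar marker passed, and the acinar sum was highest in wild type replicate 1, at 1137 FPKM. No marker was at 0 in all libraries. Hepatocyte markers did not move together: fgb rose, the haemopexin gene hpxa fell from 2073 to 898 FPKM (limma adjusted p = 0.0425) and 8 did not pass, and the fgb and hpxa calls were lost in 8 and 9 of 14 alternatives. The part of these differences in the C3 levels was not tested.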

How the data were processed

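RNA was extracted from dissected adult livers, 3 libraries a genotype, and sequenced on standard Illumina libraries, per the labels' protocols. The authors deposited FPKM values for 23354 genes and, per library, event lists with transcript FPKM. GRCz11 and DESeq2 are named in the submitters' processing notes. Not given in the sources used here are the aligner, counter, strand setting, annotation release and assembler.

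The deposited FPKM of a gene move in steps that correspond to single reads. Reads were recovered within 0.0001 reads for 23352 genes, and served for floors (3 reads, counting error only), read shares and an alternative. A minimum of 1 FPKM in 3 or more of the 6 libraries left 11164 genes, tested on log2(FPKM + 1) with limma 3.58.1 (R 4.3.3), a two-sided linear model of genotype with an intensity trend, Benjamini-Hochberg adjusted over all of them, threshold 0.05. The fit was tested on simulated data of 10937 genes, with the same noise setting for every gene, which real genes need not share. It recovered 93.9% of 2-fold and 100% of 4-fold changes. Of its calls 6.40% were false, more than the threshold of 0.05 aims at. Nothing says that replicates were separate animals, so p-values measure only the spread between libraries, which may be technical. All within-genotype pairs differed beyond sampling noise. Ratios between copies were compared with exact permutation tests (scipy 1.17.1). Tables and figures were made with Python 3.11.15, pandas 2.3.3, numpy 2.4.6 and matplotlib 3.10.9.

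Named genes were all C3 copies, complement genes past the threshold, c5ar1, cfb, cfbl, cfh and cfd whatever their p, the 5 genes most like c3a.1 and c3b.1, and at most 2 markers a list. A gene under this rule is not reported here. From outside this rule itgb2, zgc:65894, crb3b and DENND1C were named after their values were seen. So were c4, cfhl2, vtna, c7b, cebpd, nr1h4 and esr1, named because their direction changed. Members and lists were chosen with earlier results of these data known. Alternatives were median scaling, quantile normalization, a pseudocount of 0.1, a replicate block, no filter, a filter of 5 FPKM, robust moderation, voom on recovered reads, and each library left out. The copies' protein and promoter sequences were not used here.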

Additional observations from a re-analysis of the deposited data

How the results depend on the processing

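With 3 libraries a genotype, whether a copy passed an adjusted p of 0.05 often changed when 1 library was left out. Leaving 1 out also lowered the calls over all tested genes, from 1268 to between 414 and 1134. Over the 14 alternatives of limma the log2 fold change of each tested copy but c3a.4 stayed positive, but most of them could not turn it. For these copies every mutant library lay above every wild type library, so another pseudocount or leaving 1 library out could not change the sign. A replicate block, another filter and robust moderation keep the same estimate. Only median scaling, quantile normalization and voom could have turned a direction, and they did not. The copy c3a.2 passed in all 14. For c3a.1 the log2 fold change stood at 0.52 (adjusted p = 0.0623) under median scaling and at 0.56 without a filter (adjusted p = 0.188). For c3a.3 it passed at 0.70 with a filter of 5 FPKM (adjusted p = 0.0424), at 0.70 with robust moderation (0.0465) and at 0.70 with voom on recovered reads (0.0392), and c3b.1 passed at 0.83 after quantile normalization (0.0391). With each library left out the log2 fold change ran from 0.45 to 0.65 for c3a.1, 0.88 to 1.19 for c3a.2, 0.58 to 0.89 for c3a.3, 0.39 to 0.59 for c3a.6, 0.56 to 0.88 for c3b.1 and 0.60 to 0.80 for c3b.2. That of c3a.4 ran from -0.031 to 0.23, turning to -0.018 without mutant replicate 2 and to -0.031 without wild type replicate 3. The cause was not tested.

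Over all tested genes the replicate numbers showed no pairing of the libraries: deviations of same-numbered libraries correlated at -0.04, -0.01 and -0.08. Differently numbered libraries were not compared, and a pairing that touches only some genes was not tested. With the number as a replicate block, limma gave c3a.1 at 0.56 (adjusted p = 0.0827) and c3b.2 at 0.70 (adjusted p = 0.0666), left 1 C3 copy higher, and called 950 genes in all.

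Over all genes, 660 were higher and 608 lower. Without a filter, which enlarges the adjustment to 23354 genes, it was 287 and 305, with 3 complement genes higher and 0 lower, and a filter of 5 FPKM, which leaves 5112, gave 426 higher and 494 lower. Median scaling gave 633 higher and 763 lower, and quantile normalization 644 and 736. The balance thus turned to more lower genes under each of these settings and each change of filter. It also turned on leaving out mutant replicate 2 or 3, at 49.4% and 46.6% of calls higher. The same held for wild type replicates 1 and 2, at 45.7% and 44.9%. It did not turn for mutant replicate 1 or wild type replicate 3, at 52.9% and 61.1%. With each library left out, 186 to 663 genes were higher and 228 to 606 lower, 1 to 10 complement genes were higher and 0 to 1 lower, and 1 to 3 C3 copies were higher. As shares of reads in place of FPKM, the c3b copies held 4.03% in the mutant and c3a.1 67.1% in the wild type. The log2 ratio of c3b.1 to c3a.1 (mutant minus wild type) ran from -0.019, without mutant replicate 1, to 0.33. Some genes that did not pass, of complement or of factors that act on C3 promoters in mammals, also changed direction. With 1 library left out, c4 ran from -0.10 to 0.29, cfhl2 from -0.19 to 0.50, vtna from -0.024 to 0.28, c7b from -1.17 to 0.30, cebpd from -0.057 to 0.39, nr1h4 from -0.089 to 0.39 and esr1 from -0.16 to 0.19, and esr1 was at 0.0064 with voom on recovered reads. The stricter motif spellings were not run, since no promoter sequence was used here. Depth limits c3a.5 alone among the copies, with 13 to 45 reads a library.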
